A study of Homo sapiens with 24 samples.

Results

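DNA replication and mitosis genes were followed across 24 expression arrays of human embryonic stem cells. The set holds 45 genes, and its members are all probe sets of the array that carry 1 of the 45 listed symbols and no other symbol. There were 100 such probe sets, and 19775 genes in all had a probe set of their own. Of the 45 genes, 14 had 1 probe set and 31 had 2 or more. Each gene was represented by its brightest set over all arrays unless another set is named, and all 45 passed the filter on low values in both experiments.

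The cells were H1, H9 and HSF1, which are established human embryonic stem cell lines (HSF1 is here the name of a line and not of the gene). In the first experiment each line was grown feeder-supported, on mouse embryonic fibroblasts, or feeder-free, and was given either DMSO, the vehicle, or 250 nM AZD3965, which blocks MCT1, a carrier of lactate across the cell membrane, for 5 days. This gave 4 groups of 3 arrays, 1 array for each line in each group, so the spread there is between lines. In the second experiment feeder-free H9 and feeder-free HSF1 received unconditioned medium or medium conditioned by mouse embryonic fibroblasts, in 4 groups of 3 arrays that the labels call biological replicates. The sample labels give 5 days for the conditioned medium, whereas the study's design text gives 24 hours. The study asked how feeder cells, factors that they secrete and MCT1 inhibition bear on human pluripotent cells. All values below are the deposited log2 intensities, and a difference is a difference of log2 values in which 1 unit is a doubling.

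Before a cell copies its genome, the origin recognition complex, CDC6 and CDT1 load the ring of MCM2 to MCM7 onto DNA, the step called licensing that geminin (GMNN) restrains. CDC45 and the GINS proteins then turn the loaded ring into the working helicase. D-type and E-type cyclins drive the passage from G1 into S phase, while CDK1 with B-type cyclins, the Aurora kinases and PLK1 carry the cell into and through mitosis. Embryonic stem cells are known for a short G1 phase and a high share of cells in S phase. Most of these genes are transcribed in waves through the cycle, many under E2F factors in late G1 or under MuvB complexes in G2.

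The labelled cell type was checked against marker genes. None of the 12 measured pluripotency markers lay below the array median on all arrays of any group, whereas 1 to 7 of the 20 fibroblast markers did so in each group. The 2 feeder-supported HSF1 arrays stood apart from the rest. Their interquartile range was 2.45 log2 units against 2.66 to 3.30 on the other 22 arrays, and their correlation with those arrays over all probe sets was 0.860 to 0.961, against 0.948 to 0.998 among the others. The difference between the 3′ and 5′ probe sets of ACTB, a measure of RNA integrity, ran from 1.07 to 3.25 in H9 in unconditioned medium and from 1.42 to 1.84 in H9 in conditioned medium. Among the feeder-supported and feeder-free arrays given DMSO it was -0.15 to 0.80 and 0.65 to 1.00.

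Promoter windows were available from RefSeq (GRCh38.p14) for 38 of the 45 genes, in 54 windows that run from 250 bases before to 50 bases after an annotated start. Both strands were searched for an E2F site (TTTCGCGC or TTTGGCGC), for the CHR element of G2 genes (TTTGAA or TTCGAA) and for CCAAT. An E2F match lay in 22.2% of the members' windows and in 1.15% of all 35116 windows in the table, a CHR match in 27.8% and 16.4%, and a CCAAT match in 79.6% and 34.6%. A CHR match together with CCAAT was in 25.9% of the members' windows and in 6.38% of all windows. The 11 genes with an E2F match were CDC6, MCM2, MCM3, MCM6, MCM7, GMNN, GINS1, CDC25A, E2F1, E2F2 and CDK1. The 13 with a CHR match were PLK1, BUB1, BUB1B, CENPF, CDC20, TOP2A, CDC25C, KIF11, MKI67, RRM1, CCNB2, CDK1 and MCM6. A match describes the letters in the window and is no evidence of binding.

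The promoters of CDC6 and MCM2 are shown for the E2F match and those of PLK1 and BUB1 for the CHR match. They are the pair with each motif that had the largest summed absolute t values. The sum ran over the feeder comparison with DMSO, the inhibitor in feeder-free cells and conditioned medium in H9 and in HSF1. Each window is printed 5′ to 3′ on the gene's strand and ends 30 bases into the transcript. CDC6 is on the plus strand at chr17:40287629-40287908, MCM2 on the plus strand at chr3:127598161-127598440, PLK1 on the plus strand at chr16:23678639-23678918 and BUB1 on the minus strand at chr2:110678034-110678313. Capitals mark the E2F letters in CDC6 and MCM2, and the CHR and CCAAT letters in PLK1 and BUB1. In MCM2 the 2 E2F matches overlap, and in BUB1 1 of the 2 CCAAT matches is on the other strand and reads ATTGG.
CDC6: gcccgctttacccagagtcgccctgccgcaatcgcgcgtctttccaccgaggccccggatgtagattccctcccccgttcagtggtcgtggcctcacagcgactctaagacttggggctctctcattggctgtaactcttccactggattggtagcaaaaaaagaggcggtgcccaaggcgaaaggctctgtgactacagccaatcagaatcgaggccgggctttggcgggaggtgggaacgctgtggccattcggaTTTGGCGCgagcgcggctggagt
MCM2: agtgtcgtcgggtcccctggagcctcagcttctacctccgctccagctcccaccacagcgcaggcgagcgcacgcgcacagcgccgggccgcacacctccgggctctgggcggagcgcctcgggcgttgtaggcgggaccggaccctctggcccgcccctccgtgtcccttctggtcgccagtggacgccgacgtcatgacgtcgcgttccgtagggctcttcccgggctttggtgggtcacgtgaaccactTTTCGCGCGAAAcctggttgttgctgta
PLK1: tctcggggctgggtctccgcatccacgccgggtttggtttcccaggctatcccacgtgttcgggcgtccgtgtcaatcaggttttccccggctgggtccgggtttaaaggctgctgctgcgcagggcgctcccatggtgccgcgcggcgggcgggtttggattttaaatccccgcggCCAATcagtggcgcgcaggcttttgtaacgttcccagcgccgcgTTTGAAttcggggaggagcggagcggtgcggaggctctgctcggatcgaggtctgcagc
BUB1: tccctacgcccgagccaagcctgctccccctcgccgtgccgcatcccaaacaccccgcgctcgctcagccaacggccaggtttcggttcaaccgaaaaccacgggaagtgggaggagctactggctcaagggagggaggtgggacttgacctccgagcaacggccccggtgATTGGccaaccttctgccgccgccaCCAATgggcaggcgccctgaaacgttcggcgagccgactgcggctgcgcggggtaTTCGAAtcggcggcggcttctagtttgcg

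Feeder-supported arrays gave lower values for many of these genes than feeder-free arrays when both cultures received DMSO. In this comparison 21 of the 45 members were lower on feeders and 0 were higher at a Benjamini-Hochberg adjusted p under 0.05 by limma with the line as a term, while 24.1% of the 17218 genes tested were called lower. Among the 11663 genes above log2 7 on at least 3 arrays, a class that holds all 45 members, 32% were called lower. The difference was below 0 for 43 of the 45 members. Their median was -0.58, against -0.19 over all genes and -0.46 over the genes above log2 7. Within the lines the members' median was -0.39 in H1, -0.37 in H9 and -1.01 in HSF1, where all genes had medians of -0.09, -0.12 and -0.28.

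**Figure D1:**
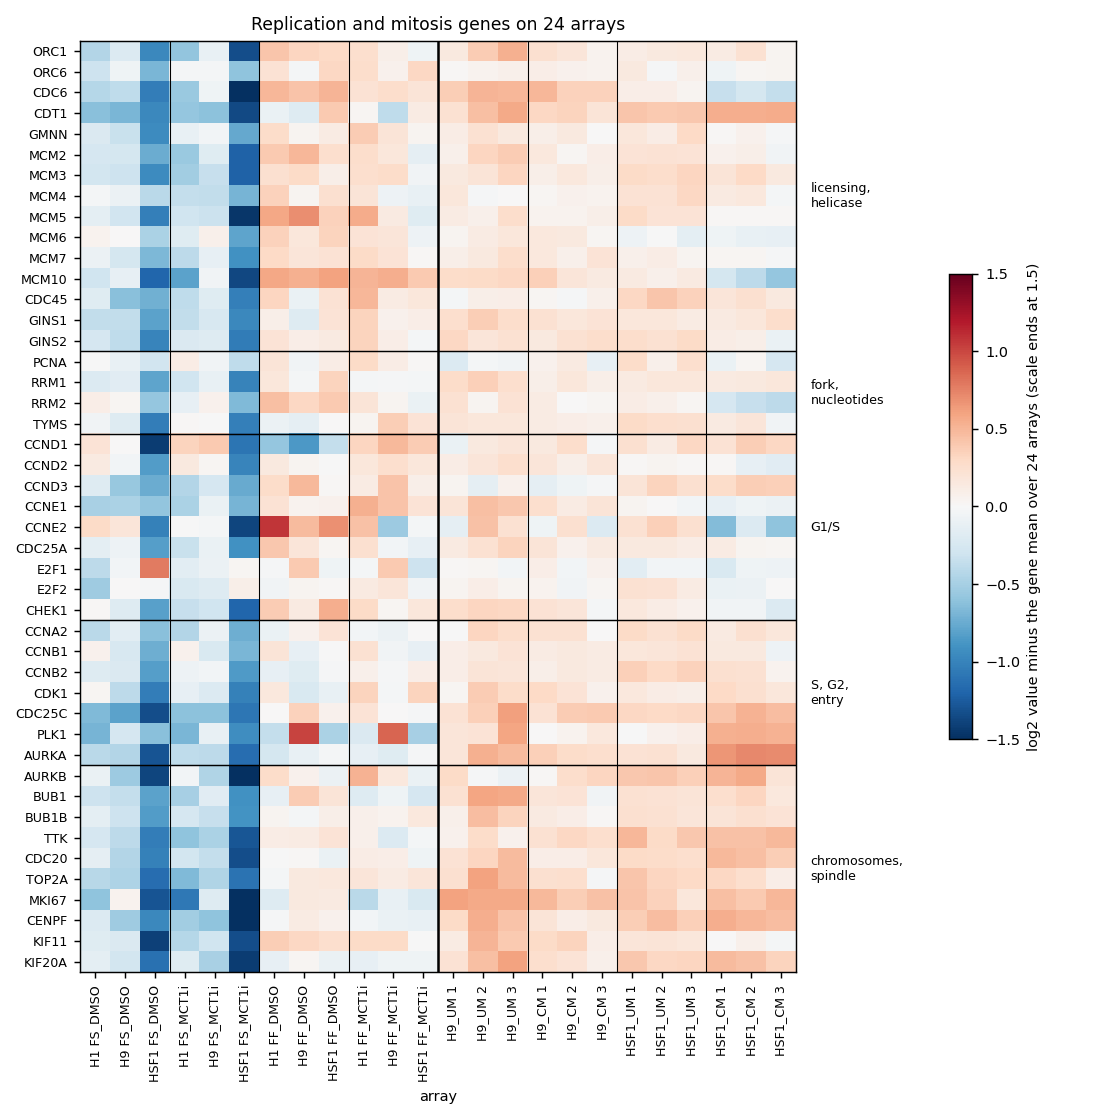
Log2 value of each of the 45 genes on each of the 24 arrays minus that gene's mean over all arrays, with the genes in rows ordered by role and the arrays in columns ordered by group; colour runs from 1.5 log2 units below to 1.5 above the mean. The 2 feeder-supported HSF1 arrays hold the lowest values for most genes, and the 12 arrays of the medium experiment lie closer together.

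The licensing and helicase genes made up 11 of the 21 called, out of 15 in that class, with a median of -0.69. MCM5, a subunit of the helicase ring, was at 10.88, 10.74 and 9.99 in feeder-supported H1, H9 and HSF1 and at 11.60, 11.72 and 11.36 in the same lines without feeders. The 2 groups did not overlap, and the difference was -1.02 ± 0.207 (SE, n = 3 lines, limma adjusted p = 0.00756). MCM10, which joins the helicase at the start of replication, was at 9.46, 9.64 and 8.58 with feeders and at 10.35, 10.30 and 10.37 without, a difference of -1.11 ± 0.273 (SE, limma adjusted p = 0.0145). The difference was -1.79 in HSF1 and -0.66 in H9, so the lines differed in its size and not in its sign. CDC6, the loader of the ring, lay at 8.98, 9.03 and 8.37 against 9.90, 9.84 and 9.91. Its difference was -1.09 ± 0.275 (SE, limma adjusted p = 0.0157), again with no overlap and with HSF1 the lowest.

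The other ring subunits were also below their feeder-free level in each line, by unequal amounts. MCM2 was at 10.84, 10.83 and 10.35 with feeders and 11.49, 11.59 and 11.35 without, and MCM3 was at 11.30, 11.26 and 10.63 against 11.81, 11.86 and 11.66. The differences were -0.80 ± 0.187 for MCM2 and -0.72 ± 0.170 for MCM3 (SE, limma adjusted p = 0.0123 and 0.0129). MCM7 fell by 0.57 (limma adjusted p = 0.0348), whereas MCM6 at -0.42 (limma adjusted p = 0.0674) and MCM4 at -0.39 (limma adjusted p = 0.0875) did not pass. The arrays of all 6 subunits had feeder-supported HSF1 as the lowest. Of the remaining licensing genes, ORC1, the ATPase of the origin recognition complex, fell by 0.88 (limma adjusted p = 0.0202), from 9.23, 9.14 and 9.12 to 8.38, 8.61 and 7.85. GMNN, GINS2, CDC45 and CDT1 were lower by 0.64 to 0.79.

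Mitotic genes were next in number, but their share called is near the 32% of all genes above log2 7 called lower. Of the genes of S, G2 and mitotic entry only CDC25C was called, and CCNA2, CCNB1, CCNB2, CDK1, PLK1 and AURKA were not. CDC25C, the phosphatase that activates CDK1 at the entry into mitosis, had the smallest adjusted p of all members. It was at 8.01, 7.87 and 7.35 with feeders and at 8.69, 9.02 and 8.74 without, so that every feeder-supported array lay below every feeder-free array. The difference was -1.07 ± 0.202 (SE, limma adjusted p = 0.00605). Of the 10 genes of chromosomes, spindle and checkpoint, 5 fell, namely KIF11, TOP2A, AURKB, TTK and BUB1. KIF11, the motor that pushes the spindle poles apart, was at 9.80, 9.77 and 8.58 against 10.35, 10.29 and 10.23 (limma adjusted p = 0.0210). TOP2A, which untangles sister chromosomes, was at 10.95, 10.90 and 10.22 against 11.34, 11.50 and 11.51 (limma adjusted p = 0.0193). In both, H1 and H9 differed little from each other and feeder-supported HSF1 lay well below them.

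The G1 cyclins did not move together. CCND3 fell by 0.76 (limma adjusted p = 0.0172), from 8.63, 8.85 and 8.38 without feeders to 8.17, 7.80 and 7.62 with them. CCNE1 and CCNE2, the partners of CDK2 at the start of S phase, fell by 0.63 and 0.92 (limma adjusted p = 0.0310 and 0.0412). CCND2 was at 12.20, 12.02 and 11.22 against 12.21, 12.10 and 12.06, a difference of -0.31 that did not pass (limma adjusted p = 0.239) and that lies almost wholly in HSF1. CCND1 differed by 0.20 (limma adjusted p = 0.665), because it was higher on feeders by 0.79 in H1 and 0.87 in H9 and differed by -1.07 in HSF1. With array weights, without the 2 feeder-supported HSF1 arrays or without the HSF1 line, CCND1 passed as higher on feeders. E2F1, an activating E2F, likewise had opposite signs by line, at -0.38, -0.44 and 0.84 in H1, H9 and HSF1.

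**Figure D2:**
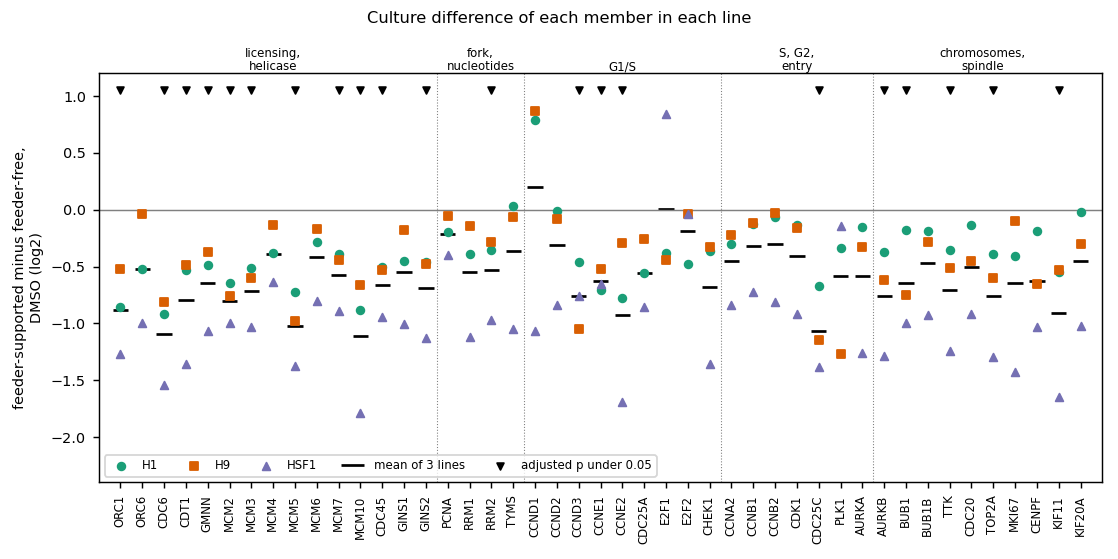
Difference between feeder-supported and feeder-free cells given DMSO, in log2 units, for the 45 genes, with a coloured point per line (H1, H9, HSF1), a black bar for their mean and a black triangle at the top where the limma adjusted p is under 0.05. The mean lies below 0 for 43 genes, the HSF1 points reach -1.79, and CCND1 and E2F1 show lines on both sides of 0; after quantile normalization 7 genes were called.

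Markers of other cells and of RNA quality also differed in this comparison, not equally in each line. Of 20 fibroblast markers 7 were higher and 0 were lower on feeders, and the share of all genes called higher is not given here. Their summed linear signal was 8990 to 22021 with feeders and 6040 to 12489 without. By line it was 22021 against 12489 in H1 and 12113 against 6040 in H9, but 8990 against 8799 in HSF1. Of 12 pluripotency markers 5 were lower, with a summed signal of 48082 to 61752 against 69169 to 69770. The ACTB difference was lower on feeders in each line, and with that difference as a covariate 0 members passed, with 7 at an unadjusted p under 0.05. Their part in the result was not tested, nor was the share of feeder-cell RNA on the feeder-supported arrays. In bulk RNA fewer cells in cycle and less of these transcripts per cell cannot be told apart. Without the 2 feeder-supported HSF1 arrays 32 members were called. Leaving out the H1 line or the H9 line gave 0, and leaving out HSF1 gave 22. After quantile normalization, which moved the median of all genes from -0.19 to 0.04, the members' median was -0.21 and 7 were called.

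With the MCT1 inhibitor in both cultures, 26 members were lower on feeders and 0 were higher, where 27.8% of all genes tested and 36.1% of the genes above log2 7 were called lower. All 45 differences were below 0, with a median of -0.63 against -0.20 over all genes and -0.47 over the genes above log2 7. The call was shared with the DMSO comparison by 18 genes, 3 were called only with DMSO (RRM2, CCNE2 and BUB1) and 8 only with the inhibitor (MCM4, GINS1, CHEK1, CDK1, PLK1, BUB1B, CDC20 and CENPF). A difference between the 2 comparisons was itself called for no member, as given below. Licensing genes again led, with 13 of 15 called, and spindle genes followed with 7 of 10. The 10 smallest adjusted p belonged to MCM3 (-0.85), MCM10 (-1.22), TOP2A (-0.90), MCM5 (-0.87), CDC25C (-0.84), CCNE1 (-0.81), MCM2 (-0.75), AURKB (-0.89), CDC45 (-0.80) and CCND3 (-0.69), with limma adjusted p from 0.00631 to 0.0190. MCM7 at -0.65 and MCM4 at -0.47 passed and MCM6 at -0.41 did not. CCND1 at -0.52 and CCND2 at -0.46 did not pass, and for CCND1 the lines again differed, with 0.01 in H1, -0.09 in H9 and -1.48 in HSF1. No member was called in this comparison once the H1 line was left out or the ACTB covariate was added, and 8 were called without H9.

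The MCT1 inhibitor itself changed none of the 45 genes at the threshold. Without feeders 0 members passed, against 0.842% of all genes tested in either direction, and at an unadjusted p under 0.05 there were 1 higher (CCND1) and 1 lower (CCNE2). With feeders 0 passed, against 0.00581% of all genes, and 0 were under an unadjusted 0.05. The members' medians were -0.05 without feeders and -0.07 with them. The interaction of inhibitor and culture gave 0 members, with 0 under an unadjusted 0.05, and 0.0174% of all genes.

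CCND1, which with CDK4 and CDK6 starts the phosphorylation of RB, had the largest difference of the members in feeder-free cells. It was at 9.27, 8.98 and 9.50 with DMSO and at 10.17, 10.33 and 10.23 with the inhibitor in H1, H9 and HSF1. All 3 inhibitor arrays lay above all 3 DMSO arrays, and the difference was 0.99 ± 0.379 (SE, limma adjusted p = 0.457). In feeder-supported cells CCND1 was at 10.05, 9.85 and 8.43 with DMSO and at 10.18, 10.24 and 8.75 with the inhibitor, a difference of 0.28. Feeder-free cells with the inhibitor thus lay near the level of feeder-supported H1 and H9, and feeder-supported HSF1 lay below all other arrays of the experiment. The second CCND1 set differed by 0.87 in the feeder-free cells.

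CCNE2 went the other way in the feeder-free cells. Its levels were 8.49, 7.90 and 8.11 with DMSO and 7.86, 6.88 and 7.40 with the inhibitor, a difference of -0.79 ± 0.320 (SE, limma adjusted p = 0.519) with no overlap between the groups. On feeders it was at 7.71, 7.61 and 6.42 against 7.42, 7.40 and 6.05, so that each line was lower with the inhibitor there too. RRM2, the small subunit of ribonucleotide reductase, was at 12.29, 12.15 and 12.23 without and 12.03, 11.89 and 11.74 with the inhibitor in feeder-free cells, a difference of -0.34 (limma adjusted p = 0.737). These 3 genes were each called with array weights, and also once both HSF1 arrays on feeders were left out, and CCND1 alone was called without the HSF1 line. With each line in each culture system as its own block, 6 members were called: CCND1 (0.99 ± 0.118, limma adjusted p = 0.000153), TYMS (0.28) and CDK1 (0.27) as higher, and CCNE2 (-0.79 ± 0.116, limma adjusted p = 0.000682), RRM2 (-0.34) and MCM5 (-0.37) as lower. Under that block 9.32% of all genes were called higher and 4.69% lower, so the count of 6 members is close to the background share.

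The ring subunits and the other D cyclins were also set beside each other. In feeder-free cells MCM2 to MCM7 ran from -0.37 (MCM5) to -0.05 (MCM3), CCND2 was at 0.13 and CCND3 at -0.05. In feeder-supported cells MCM2 to MCM7 ran from -0.30 (MCM4) to -0.14 (MCM7), CCND2 was at -0.02 and CCND3 at 0.02. None of these passed, with SEs such as 0.195 for CCND3. With array weights 4 members were called lower in the feeder-supported cells, with limma adjusted p from 0.0179 to 0.0417. They were MCM4 (-0.44), MCM10 (-0.49), CCNE2 (-0.71) and MKI67 (-0.62). The share of all genes called with array weights is not given here, so the count has no background beside it.

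**Figure D3:**
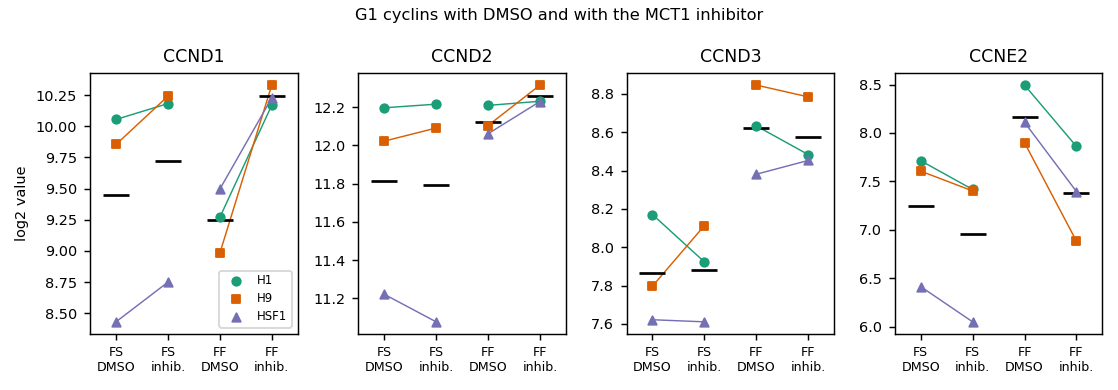
Log2 value of CCND1, CCND2, CCND3 and CCNE2 in feeder-supported (FS) and feeder-free (FF) cells with DMSO or the MCT1 inhibitor (inhib.), 1 point for each line, lines joined within a culture system, and a bar for the mean of 3. With the inhibitor CCND1 is higher and CCNE2 lower in all 3 feeder-free lines, at 10.17 against 9.27 and at 7.86 against 8.49 in H1. Feeder-supported HSF1 is lowest in CCND1, CCND2, CCND3 and CCNE2. None of the inhibitor differences passed the threshold.

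Conditioned medium gave calls for a minority of these genes in each line. In HSF1, 9 members were lower and 2 were higher in conditioned medium at a limma adjusted p under 0.05. Of the 16572 genes tested 9.78% were called lower and 8.57% higher, and of those above log2 7 14.1% were called lower. The share of members called was above these for the lower genes and below them for the 2 higher ones. The members' median was -0.07, with -0.00 for the genes above log2 7. By role, 4 of 15 licensing genes, 3 of 4 genes of the fork and of nucleotide supply and 2 of 9 G1/S regulators fell, 2 of 7 genes of G2 and mitotic entry rose, and none of the 10 spindle genes was called.

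AURKA, the kinase that matures the spindle poles, was at 11.52, 11.53 and 11.45 in HSF1 in unconditioned medium and at 11.97, 12.03 and 12.01 in conditioned medium. The difference was 0.50 ± 0.0754 (SE, n = 3 per group, limma adjusted p = 0.000206), larger than the spread within either group. PLK1, a kinase of mitotic entry and spindle assembly, was at 8.20, 8.26 and 8.30 against 8.72, 8.75 and 8.72. Its difference was 0.48 ± 0.0946 (SE, limma adjusted p = 0.00211), and all 3 conditioned arrays lay above all 3 unconditioned ones. A second AURKA set rose by 0.43 and the third was at 0.15 (limma adjusted p = 0.00321 and 0.499), while PLK1 has 1 set.

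Of the genes that fell in HSF1, 4 had the largest differences and the smallest adjusted p. MCM10 was at 9.90, 9.85 and 9.90 in unconditioned and at 9.50, 9.37 and 9.18 in conditioned medium, a difference of -0.53 ± 0.0814 (SE, limma adjusted p = 0.000244). CDC6 went from 9.50, 9.51 and 9.45 to 9.06, 9.14 and 9.04, a difference of -0.40 ± 0.0696 (SE, limma adjusted p = 0.0007). Neither gene had overlapping groups, and both CDC6 sets fell. CCNE2 went from 7.65, 7.78 and 7.66 to 6.78, 7.22 and 6.82, which at -0.76 ± 0.145 (SE, limma adjusted p = 0.00162) was the largest difference of the members in this comparison. RRM2 went from 11.95, 11.92 and 11.87 to 11.59, 11.49 and 11.45 (-0.40 ± 0.0631, SE, limma adjusted p = 0.000295). The other 5 were smaller in size: PCNA, the sliding clamp of the fork, fell by 0.31, E2F2 by 0.25, GINS2 by 0.23, MCM5 by 0.21 and TYMS, thymidylate synthase, by 0.17, with limma adjusted p from 0.0146 to 0.0483. MCM5 was at 11.31, 11.22 and 11.23 against 11.04, 11.04 and 11.04, with little spread among the conditioned arrays.

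Apart from MCM5, the subunits of the helicase ring were below 0 without passing. MCM2 was at -0.18 (limma adjusted p = 0.110), MCM4 at -0.16, MCM3 at -0.08, MCM7 at -0.06 and MCM6 at -0.02. The difference of MCM2 was as large as that of TYMS, which passed, and a change in these subunits is not excluded. The D cyclins were at 0.07 (CCND1), -0.12 (CCND2) and 0.07 (CCND3) in their brightest sets. AURKA, PLK1, MCM10, RRM2, CDC6 and CCNE2 kept their calls in all 22 alternatives run, and TYMS lost its call in 15 of them. The count of 11 became 6 and 7 without replicates 1 and 3 in unconditioned medium and 7 without replicate 3 in conditioned medium. Of 12 pluripotency markers 4 were higher and 1 lower in this comparison, and of 17 fibroblast markers 0 were higher and 2 lower. The markers' part in the result was not tested. When every set was fitted, 15 of 95 tested member sets were called lower and 3 higher, where 6.55% of all 39884 sets were called lower.

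**Figure D4:**
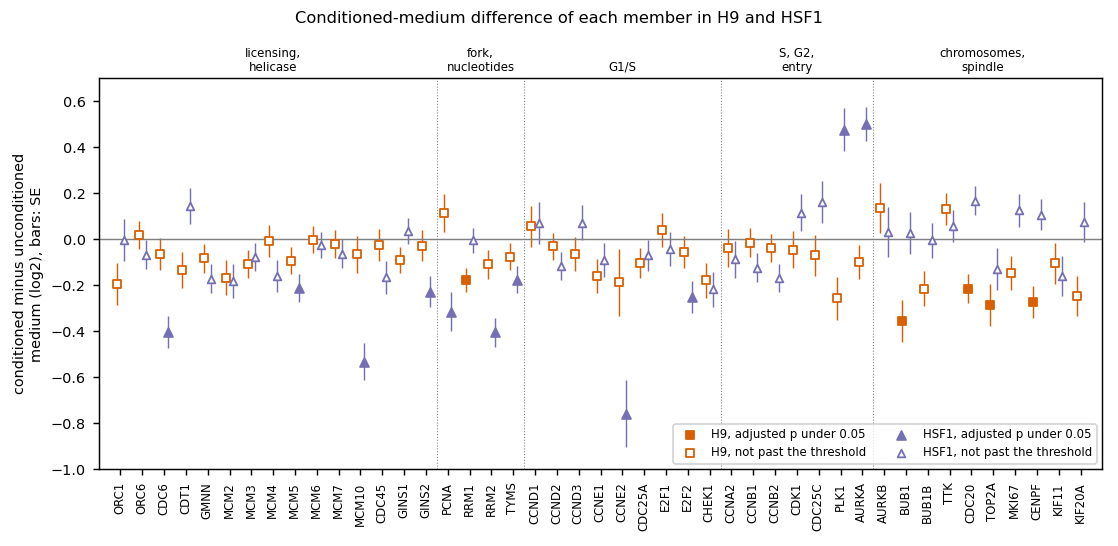
Difference between conditioned and unconditioned medium, in log2 units with SE bars, for the 45 genes in H9 and in HSF1 (3 arrays per group); filled points have a limma adjusted p under 0.05. In HSF1 AURKA and PLK1 lie near 0.5 and CCNE2 at -0.76, and the 5 filled points of H9 are other genes, at -0.18 to -0.35.

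In H9, 5 members were lower in conditioned medium and 0 were higher, which is 11.1% of the members, against 13% of all genes and 18.8% of the genes above log2 7 called lower. The share is thus below the background. The 5 were CENPF, BUB1, RRM1, CDC20 and TOP2A, and for CDC20 and CENPF alone among them the test of the difference between the lines, given below, also passed. CENPF, a kinetochore protein, was at 10.87, 11.13 and 11.02 in unconditioned and 10.78, 10.69 and 10.74 in conditioned medium (-0.27 ± 0.0681, SE, limma adjusted p = 0.0133). BUB1, a kinase of the spindle checkpoint, was at 10.75, 11.12 and 11.10 against 10.71, 10.73 and 10.47 (-0.35 ± 0.0915, SE, limma adjusted p = 0.0159). In both the groups did not overlap, but for BUB1 the first unconditioned array lay close to the conditioned ones. CDC20, an activator of the anaphase-promoting complex, ran from 11.89 to 12.16 against 11.78 to 11.85, and RRM1, the large subunit of ribonucleotide reductase, was at 11.89, 11.98 and 11.87 against 11.71, 11.78 and 11.71. They fell by 0.21 and 0.18 (limma adjusted p = 0.0320 and 0.0309). TOP2A was at 11.60, 11.97 and 11.83 against 11.60, 11.61 and 11.34, so its groups overlapped, and it fell by 0.28 (limma adjusted p = 0.0453).

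RNA quality differed among the unconditioned H9 arrays. Replicates 2 and 3 of H9 in unconditioned medium had ACTB differences of 3.25 and 2.89, against 1.07 in replicate 1 and at most 1.84 in conditioned medium, and in the 5 genes called their values are the higher ones except for RRM1. Without those 2 arrays 0 members were called, but the group then holds 1 array, assumed to vary like the other groups. The differences were then -0.14 for CENPF, -0.12 for BUB1, -0.15 for RRM1, -0.092 for CDC20 and -0.086 for TOP2A, so that RRM1 moved least. Without replicate 1 of that group there were 14 and without replicate 2 there were 0. Leaving out replicate 3 of it, or any 1 of the conditioned H9 arrays, gave 2, and leaving out replicate 2 of HSF1 in unconditioned medium gave 3. With the ACTB difference as a covariate 0 were called, with differences from -0.16 (CDC20 and RRM1) to -0.23 (BUB1). Its part in the result was not tested. Pluripotency markers were higher in conditioned medium for 6 of 12 and lower for 0, and fibroblast markers were higher for 3 and lower for 4 of 17. MCM2 to MCM7 ran from -0.17 (MCM2) to -0.00 (MCM6), and CCND1, CCND2 and CCND3 were at 0.06, -0.03 and -0.06 in their brightest sets, with none passing.

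The response to conditioned medium differed between the 2 lines for 7 members when the difference itself was tested. At a limma adjusted p under 0.05, 4 members had a response that was higher in HSF1 than in H9 and 3 had one that was lower, where 5.65% and 2.08% of all genes were called so. AURKA differed by 0.60 ± 0.107 (SE, limma adjusted p = 0.00395). In H9 it was at 11.49, 11.83 and 11.77 without and 11.66, 11.58 and 11.55 with conditioned medium, and those groups overlap. PLK1 differed by 0.73 ± 0.134 (SE, limma adjusted p = 0.00469), with H9 at 8.37, 8.41 and 8.79 in unconditioned and 8.20, 8.24 and 8.35 in conditioned medium. These 2 kinases kept the call in all 22 alternatives.

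The other 5 were less firm. CDC20 differed by 0.38, CENPF by 0.38, MCM10 by -0.47, PCNA by -0.43 and CDC6 by -0.34, with limma adjusted p from 0.0186 to 0.0462. The difference of CENPF was -0.032 when its probe sets were averaged. As given above, the falls of CDC20 and CENPF in H9 lost their calls with the ACTB covariate. MCM10 was at 10.04, 10.05 and 10.08 in H9 in unconditioned and 10.13, 9.94 and 9.90 in conditioned medium, and CDC6 at 9.77, 9.92 and 9.90 against 9.90, 9.74 and 9.75. Both genes overlapped between the H9 media. PCNA was at 12.18, 12.36 and 12.33 against 12.45, 12.52 and 12.26 in H9, and at 12.67, 12.46 and 12.64 against 12.29, 12.41 and 12.13 in HSF1. It was the one gene that was lower in HSF1 by the test and above 0 in H9. CDC20 kept its call in 19 of the 22 alternatives, MCM10 in 15, CENPF in 11, PCNA in 10 and CDC6 in 7. The count of 7 became 2 without replicate 1 or replicate 3 of HSF1 in unconditioned medium and 12 without replicate 1 of H9 in unconditioned medium. It was 4 without replicate 3 of H9 in unconditioned medium, replicate 1 or 2 of H9 in conditioned medium, or replicate 3 of HSF1 in conditioned medium. MCM2 to MCM7 ran from -0.15 (MCM4) to 0.03 (MCM3), CCND1, CCND2 and CCND3 were at 0.01, -0.08 and 0.14, and none passed.

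**Figure D5:**
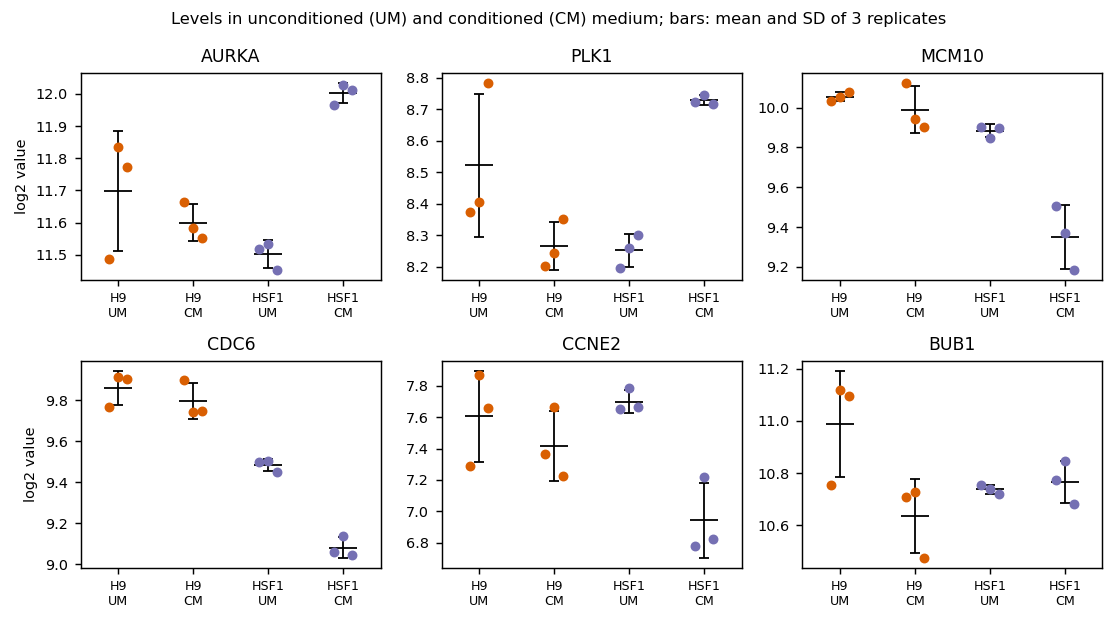
Log2 value of AURKA, PLK1, MCM10, CDC6, CCNE2 and BUB1 in H9 and HSF1 in unconditioned (UM) and conditioned (CM) medium, 3 arrays per group, with the mean and SD. In HSF1 AURKA and PLK1 are higher and MCM10, CDC6 and CCNE2 lower in conditioned medium with no overlap; for BUB1 the test passed in H9, where its first unconditioned array at 10.75 lies close to the conditioned ones, and the difference between the lines did not pass (limma adjusted p = 0.0811).

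The promoter matches were set beside these values as a description. Among the 38 genes with a window, the 13 with a CHR match, the motif shown in PLK1 and BUB1, had 5 called lower in H9, a median of -0.18 and 13 of 13 below 0. The 25 without one had 0 called, a median of -0.07 and 21 below 0. These 5 are the H9 calls that were lost with the ACTB covariate and without the 2 unconditioned H9 arrays, and 13% of all genes and 18.8% of those above log2 7 were lower there. In HSF1 the 13 had 1 called higher, 0 called lower and a median of 0.03, and the other 25 had 7 called lower and a median of -0.09. Of all genes 8.57% were called higher and 9.78% lower there, so the 1 called higher is near the background. On feeders with DMSO the 13 had 4 called lower and a median of -0.58, and the other 25 had 14 called and a median of -0.63, so that the order seen in H9 was not seen there. On feeders 24.1% of all genes and 32% of those above log2 7 were called lower, and the 4 of 13 are near the latter share. In the feeder comparison with DMSO the 11 genes with an E2F match, as shown in CDC6 and MCM2, had a median of -0.56 with 5 called, and the 27 without one a median of -0.63 with 13 called. With conditioned medium the genes with an E2F match had 0 called and a median of -0.07 in H9 and 2 called lower and a median of -0.07 in HSF1. Those without one had 5 called lower and a median of -0.11 in H9, and 5 called lower, 1 higher and a median of -0.07 in HSF1.

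The 2 lines themselves differed in 12 members, a share of 26.7% that is near the 23.6% of all genes called in either direction. In unconditioned medium HSF1 was higher than H9 for 7 and lower for 5, where 10.2% and 13.4% of all genes were called so. CDC6 differed by -0.38 ± 0.0696 (SE, limma adjusted p = 0.00109) and CCNE1 by -0.35 (limma adjusted p = 0.00308). CDC45, part of the active helicase, was higher by 0.31 (limma adjusted p = 0.00529). Higher in HSF1 were also TTK (0.26), PCNA (0.30), CCND3 (0.27), AURKB (0.33), CCNB2 (0.18) and MCM4 (0.20), and lower were MKI67 (-0.26), MCM6 (-0.19) and PLK1 (-0.27), with limma adjusted p up to 0.0490. MCM2, MCM3, MCM5 and MCM7 were at -0.05, 0.07, 0.08 and -0.09, and CCND1 and CCND2 at 0.15 and -0.16, none of which passed. CDC6 and PLK1 thus began lower in HSF1; in conditioned medium CDC6 lay further from H9 and PLK1 lay above it. Each of the 6 unconditioned arrays moved the count of 12 when left out. It became 20, 7 and 6 without H9 replicates 1, 2 and 3, and 5, 7 and 4 without HSF1 replicates 1, 2 and 3, and it was 3 without H9 replicates 2 and 3 together, where the 1 array left is assumed to vary like the other groups.

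Different probe sets of 1 gene did not always give the same sign. With every set fitted, 43 of 95 tested member sets were lower and 4 higher on feeders with DMSO, where 23.2% of all 42070 sets were called lower. Of the 31 genes with several tested sets, 20 had 1 sign in all of them. The 9 genes with sets of both signs and at least 1 call were MCM4, GINS2, CCND2, CCND3, CCNE1, E2F2, CDC25C, AURKB and BUB1. The sets that were higher on feeders were GINS2 1557595_at (0.93), CCND2 200951_s_at (0.88), E2F2 207042_at (0.64) and CCNE1 242105_at (0.60). With the inhibitor CDC25A joined them, 46 sets were lower and 8 higher, and CCND2 200951_s_at was at 1.28 and CCND3 1562028_at at 1.10 (limma adjusted p = 0.00125 and 0.0081).

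The D cyclins of the medium experiment show how far a result can hang on the set. CCND1 208711_s_at, the dimmer set of the gene, was at 8.38, 8.46 and 7.79 in H9 in unconditioned and at 9.20, 9.41 and 9.19 in conditioned medium, a difference of 1.06 (limma adjusted p = 0.0012) without overlap. In HSF1 the same set was at 8.66, 8.55 and 8.19 against 8.14, 8.08 and 7.80, and the responses of the 2 lines differed by -1.52 (limma adjusted p = 0.00447). The brightest CCND1 set showed 0.01 for that difference. CCND2 200951_s_at was at 9.15, 9.11 and 8.91 against 9.56, 9.55 and 9.32 in H9 and at 8.58, 8.61 and 8.67 against 8.22, 8.02 and 7.68 in HSF1. It rose by 0.42 in H9, fell by 0.65 in HSF1 and differed between them by -1.07 (limma adjusted p = 0.0384, 0.00273 and 0.00498), and CCND2 200952_s_at differed by -1.28 (limma adjusted p = 0.0220). CDC25A 1555772_a_at differed by -1.36 (limma adjusted p = 0.00707), with the other 2 CDC25A sets at 0.03 and -0.54. Which transcripts each set detects was not tested.

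In the remaining medium comparisons the sets disagreed for few genes with a call. In H9 these were CCND2 and BUB1, in HSF1 GINS2, E2F2 and CHEK1, in the difference between the lines CCND1, CDC25A and CENPF, and between the lines in unconditioned medium CCND3, CCNE1 and CDK1. For CENPF the brightest set differed by 0.38 and the second by -0.13 (limma adjusted p = 0.0410 and 0.750).

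Other genes of the same pathways, from lists that hold no member, were counted alongside. On feeders with DMSO 24 of 36 other replication genes were lower and 0 higher, among them POLA1 (-1.26), GINS3 (-1.13), RFC1 (-1.12) and RECQL4 (-0.89). Of 46 other mitosis genes 19 were lower, led by CENPI (-1.62), KIF15 (-1.27), FOXM1 (-1.13), the transcription factor of G2 genes, and ESPL1 (-0.87), the protease separase. Of 25 other G1/S genes 8 were lower, with RBL1 at -1.07, TFDP1 at -0.77 and CDK4 at -0.61, and 2 were higher, among them the CDK inhibitor gene CDKN2A at 0.98. In this comparison 24.1% of all genes and 32% of those above log2 7 were called lower, so the G1/S count is near the background. With the inhibitor in both cultures 28 of 36 replication genes were lower and 0 higher, 23 of 46 mitosis genes were lower and 1 higher, and 7 of 25 G1/S genes were lower and 3 higher. The last is near the 27.8% of all genes called lower.

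With conditioned medium in HSF1, 9 of the 36 other replication genes were lower and 4 higher, with ORC5 at -0.54, RFC3 at -0.46, DBF4 at -0.46 and TIPIN at -0.39. The mitosis list had 4 higher and 1 lower of 46, with CDCA3 at 0.26, PRC1 at 0.27, NUSAP1 at 0.20 and BUB3 at -0.34. Of all genes tested in HSF1, 8.57% were called higher and 9.78% lower, so the mitosis count of 4 higher is near the background. The G1/S list had 7 higher and 2 lower of 25. Among these were the CDK inhibitor genes CDKN1C, at 0.91, and CDKN1A, at 0.61. In H9 the replication list had 12 lower and 1 higher, the mitosis list 5 lower and 2 higher and the G1/S list 4 lower and 1 higher. There 13% of all genes and 18.8% of those above log2 7 were called lower. The mitosis share of lower genes is below both values, and the G1/S share lies between them. CDKN1A, the gene of p21, fell by 0.46 in H9 and its response differed between the lines by 1.07, and FOXM1 and BIRC5 fell by 0.34 and 0.31 in H9.

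In none of the 9 comparisons were 8 of the 45 genes called: ORC6, CCND1, CCND2, CDC25A, E2F1, CCNA2, CCNB1 and KIF20A. The count of 8 refers to the fit of 1 set per gene. In the fit of every set, a dimmer set of CCND1, CCND2, CDC25A, CCNA2 and CCNB1 passed in at least 1 comparison. The brightest CDC25A set also passed in that fit, on feeders with DMSO (-0.56, limma adjusted p = 0.0471). The share of all tested genes called in none of the 9 is not given here, so the count of 8 has no background beside it. The dimmer set of CCNB1, the cyclin of CDK1 in mitosis, was lower on feeders with DMSO (-0.72) and with the inhibitor (-0.68), and that of CCNA2, the cyclin of S phase and G2, with the inhibitor (-0.73).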

How the data were processed

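RNA of 24 cultures was measured on human expression arrays. The authors deposited log2 intensities made with RMA, per the submitters' processing notes; the sources used here do not give the RMA version or say if the 24 arrays were normalized jointly. Values were used as deposited. Probe sets were named through the platform annotation: 41097 had 1 symbol, 1801 several and 11777 none, and all 45 members were matched to RefSeq by Entrez ID. Each gene took its brightest set, and genes above log2 5 on at least 3 of the 12 arrays of an experiment were tested (17218 and 16572 genes) with limma 3.58.1 in R 4.3.3 (lmFit, eBayes with an intensity trend, Benjamini-Hochberg over all genes, threshold 0.05). The feeder and inhibitor experiment was fitted with the line as a term, since each line gave 1 array to each group; the medium experiment had no block, since same-numbered arrays did not deviate together (r = -0.27 to 0.13). In the feeder and inhibitor experiment the p-values rest on how group differences varied from line to line, pooled over the 12 arrays. In the medium experiment they rest on the spread between replicate cultures as labelled, also pooled over the 12 arrays. Every set was also fitted.

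Named were all members called, up to 10 by adjusted p in each direction, the D cyclins, MCM2 to MCM7 and members whose sets disagree, and up to 4 genes of each other list. The members and lists were chosen with earlier results of these data known. The comparisons of culture with DMSO and of the inhibitor share control arrays, so their values are only set side by side. Alternatives were array shifts, quantile normalization, other filters, the mean of all sets, array weights, no trend, an ACTB covariate, a block and leaving arrays out. The fits were tested on simulated data. For 5 genes of the other lists no set of their own was at hand, and they are not analysed here.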

Additional observations from a re-analysis of the deposited data

Results flagged for a closer look

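For 7 members the response to conditioned medium differed between HSF1 and H9 by a limma test of the difference itself (HSF1 minus H9, adjusted over all genes tested). AURKA differed by 0.60 and PLK1 by 0.73, with responses in HSF1 above those in H9. CDC20 and CENPF, which fell in H9, each differed by 0.38, and CENPF was at -0.032 when its probe sets were averaged. Neither fall in H9 was called with the ACTB difference as a covariate (-0.16 for CDC20 and -0.19 for CENPF). Without both unconditioned H9 arrays of high ACTB difference the H9 values were -0.092 for CDC20 and -0.14 for CENPF. MCM10 differed by -0.47, PCNA by -0.43 and CDC6 by -0.34, with the lower response in HSF1. The limma adjusted p ran from 0.00395 for AURKA to 0.0462 for CDC6.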

How the results depend on the processing

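Of 124 single-gene results under 2215 alternatives, 1890 kept direction and side of the threshold, 292 lost a call, 29 gained one and 4 reversed, all with the mean of all probe sets: CCND3 on feeders with the inhibitor (0.20), CCND2 in H9 with conditioned medium (0.36), and the line difference of CENPF (-0.032) and CCND1 (-0.75). The count of members called on feeders with DMSO was 7 after quantile normalization, 32 with array weights, 0 with the ACTB covariate, 1 with no replicate block, 32 without the 2 feeder-supported HSF1 arrays and 0 to 22 without 1 line. With the inhibitor it was 9, 0 and 7 after quantile normalization, with the covariate and with no replicate block, and 0 to 25 without 1 line. For the inhibitor without feeders it was 3 with array weights, 6 with a replicate block of line and culture, 3 without the feeder-supported HSF1 arrays and 0 to 1 without 1 line, and with feeders 4 with array weights. For conditioned medium in H9 it was 10 with array weights, 2 without the trend, 0 with the covariate, 2 with the replicate block, 0 without both unconditioned arrays of high ACTB difference and 0 to 14 without 1 array. In HSF1 it was 18 with array weights, 7 with the replicate block and 6 to 16 without 1 array. For the difference between lines it was 13 with array weights, 4 without the trend, 3 with the replicate block and 2 to 12 without 1 array. For HSF1 against H9 in unconditioned medium it was 7 without the trend, 7 with the covariate, 3 without those 2 H9 arrays and 4 to 20 without 1 array; a replicate block could not be fitted apart from the line. The share of all genes called under each alternative is not given here, apart from the block of line and culture in feeder-free cells. The causes were not tested. The number of arrays limits the precision.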
